A study of Homo sapiens with 12 samples.

Results

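The enzymes that make inosine monophosphate from ribose phosphate, those that turn it into AMP and GMP, and the salvage enzyme HPRT1 were followed across 4 drug treatments of KP4 pancreatic cancer cells. The members were taken by gene name (PPAT, GART, PFAS, PAICS, ADSL, ATIC, IMPDH1, IMPDH2, GMPS and HPRT1), and each of the 10 matched 1 of the 36601 genes in the table. All 10 passed the filter on low values (a mean of 10 normalized counts or more), which left 15376 genes to test. Metformin alone lowered 7 of the 10 mRNAs, with changes from −17.7% for GMPS to −36.8% for PFAS (25.9% of all tested genes fell), and these 7 also fell with both drugs, against the same DMSO libraries. GART and IMPDH2 did not fall in either, and PPAT was not called. FK866 alone lowered 2, PFAS and IMPDH1 (9.84% of all tested genes fell), and these calls depended on how the libraries were compared.

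Purines are built step by step on phosphoribosyl pyrophosphate (PRPP), an activated ribose. PPAT commits PRPP to the pathway, GART, PFAS, PAICS, ADSL and ATIC then assemble the ring of inosine monophosphate (IMP), and GART and ATIC each use formyl groups carried by folate. From IMP, adenylosuccinate synthase and ADSL give AMP, whereas the IMP dehydrogenases IMPDH1 and IMPDH2 oxidize IMP with NAD as the electron acceptor and GMPS aminates the product to GMP. HPRT1 recovers hypoxanthine and guanine with PRPP, the same sugar donor that NAMPT uses to recycle nicotinamide into NAD.

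KP4 is a human line of pancreatic ductal carcinoma with the genotype labelled WT. Its cells received for 24 h either DMSO as vehicle (DMSO), 10 mM metformin (Met), an inhibitor of respiratory complex I, 5 nM FK866 (FK), an inhibitor of NAMPT, or both drugs together (Met+FK). Each treatment had 3 libraries of ribosome-depleted RNA from the 1 line, with replicate numbers 1 to 3. The labels do not say that these were separate cultures, so p-values measure the spread between libraries, which may be technical. Values are of RNA from whole plates, in which fewer cells of a type and less RNA per cell cannot be told apart.

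Libraries held between 30667735 and 41052203 counted read pairs, with a median of 34767231. Keratin genes KRT8 and KRT18 and the ductal factor SOX9 were present in all 12 libraries, with KRT18 between 9398 and 18721 normalized counts. Other epithelial markers were low, with EPCAM between 3.78 and 12.5 and CDH1 between 24.2 and 86.5, beside 93661 to 121917 for the mesenchymal marker VIM. FK replicate 2 stood apart within its treatment, with a chi-square per degree of freedom of 51.4 against FK replicate 1 and 32.8 against FK replicate 3, where the other pairs of one treatment lay between 5.69 and 25.7. A fitted slope of log2 values on GC content was also lowest in that library, at −0.25 per 10 percentage points. Calls of members that are lost without it are marked as such. For the further listed genes no fit without a library and no GC correction is given.

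PPAT and PAICS are head-to-head neighbours on chromosome 4 (hg38), PPAT (ENSG00000128059) on the minus strand at chr4:56393362-56435615 and PAICS (ENSG00000128050) on the plus strand at chr4:56435741-56464579, with starts 126 bases apart. The stretch between the 2 deposited starts, chr4:56435616-56435740 of GRCh38.p14 on the plus strand, is shown because both genes share it. It comes from the RefSeq promoter windows, which run from 250 bases before to 50 bases after a gene's start, and capitals mark the 3 copies of GGGCGG, the GC box.
between PPAT and PAICS: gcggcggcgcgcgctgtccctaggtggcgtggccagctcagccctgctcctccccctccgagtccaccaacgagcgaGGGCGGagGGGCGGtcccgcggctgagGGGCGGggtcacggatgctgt
Of its 125 bases, 76.0% are G or C.

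Promoter windows, 12 in all, were found for 8 of the 10 members, all but ADSL and IMPDH2. The E-box CACGTG, which reads the same on both strands and is the letter string bound by MYC and related factors, was searched because MYC mRNA was higher in the Met libraries. It was held by 7.26% of the 35116 windows and by 3 of the 12 windows of members, those of PPAT, PAICS and ATIC. The PPAT and PAICS windows share 1 site, at chr4:56435792-56435797, inside the annotated span of PAICS. ATIC (ENSG00000138363), which spans chr2:215311956-215349773 on the plus strand, has 2 sites, the first 46 bases before its RefSeq start and the second 29 bases after it. Capitals mark the E-box in 30 bases of the plus strand around each site, at chr4:56435772-56435801, chr2:215312001-215312030 and chr2:215312076-215312105.
PAICS and PPAT: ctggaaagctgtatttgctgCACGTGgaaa
ATIC, before the start: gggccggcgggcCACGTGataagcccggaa
ATIC, after the start: ctcctacctgcgCACGTGgtgccgccgctg
The string TGATGNAA, the composite element of ATF4 and its partners, was in none of the 8 members' windows and in 3.62% of all windows on either strand. GGGCGG was in 9 of the 12 windows of members, with at least 1 such window for each of the 8, and in 45.0% of all windows, again on either strand.

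The other members are GART (ENSG00000159131) at chr21:33503931-33543491 (minus strand), PFAS (ENSG00000178921) at chr17:8247618-8270491 (plus), ADSL (ENSG00000239900) at chr22:40346500-40390463 (plus), IMPDH1 (ENSG00000106348) at chr7:128392277-128410252 (minus), IMPDH2 (ENSG00000178035) at chr3:49024325-49029408 (minus), GMPS (ENSG00000163655) at chr3:155870650-155944020 (plus) and HPRT1 (ENSG00000165704) at chrX:134460165-134520513 (plus). Values are sums over each gene's exons. Several members overlap a neighbour. GART shares 454 bases with SON on the opposite strand, PFAS shares 439 with CTC1 on the opposite strand, and ADSL spans 19873 bases that are also annotated to SGSM3 on its own strand. The stated counting options hold none for strand, so reads in those stretches cannot be assigned with certainty. SON had a mean of 15532 normalized counts over the 12 libraries, CTC1 had 1071 and SGSM3 had 961. The smaller overlapping genes AC137630.3 at IMPDH2, AC104472.5 at GMPS, and AC068620.2 at PPAT and AL022238.2 at ADSL had means of 12.3, 11.4, 3.77 and 0.181.

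Per length, the members differed widely in level. In DMSO, normalized counts per kilobase of the canonical transcript were highest for ATIC at 5306 ± 274 (SD, n = 3 for this and all following values), IMPDH2 at 4909 ± 260 and GART at 4259 ± 184. HPRT1 at 2224 ± 65.5, PAICS at 1906 ± 51.4, PFAS at 1360 ± 105 and ADSL at 1173 ± 61.0 followed. GMPS at 885 ± 52.5 and IMPDH1 at 882 ± 22.8 overlapped each other, as did ATIC and IMPDH2, and all other neighbours in this order were apart. PPAT, which catalyses the committing step, was the least abundant of the 10 at 448 ± 92.7 per kilobase, and it was last in every treatment, although its libraries overlapped those of IMPDH1 in FK. In Met the order at the top changed to IMPDH2 at 4745 ± 60.4, GART at 4647 ± 95.6 and ATIC at 3940 ± 177 per kilobase, with IMPDH2 and GART overlapping and ATIC apart from GART.

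**Figure D1:**
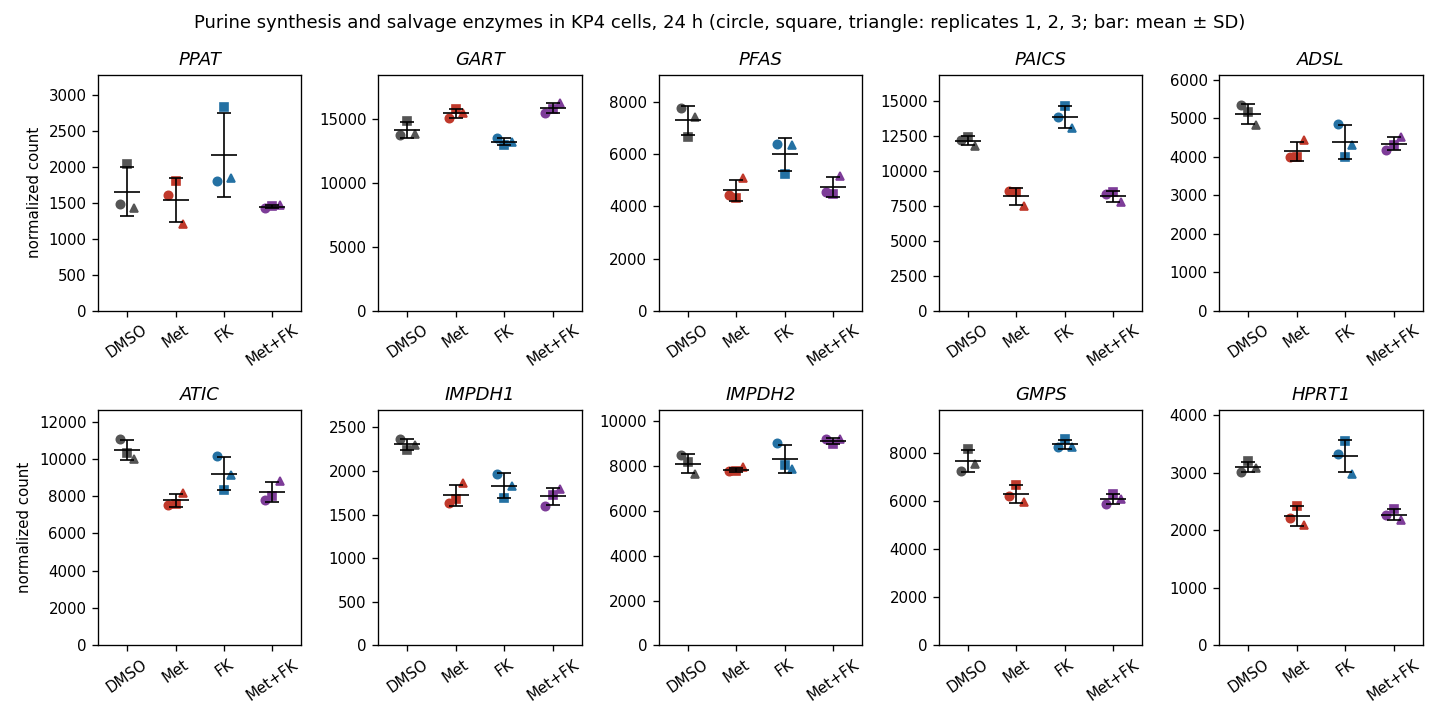
Normalized counts (vertical axes, starting at 0) of each member in the 12 libraries by treatment, with circles, squares and triangles for replicates 1, 2 and 3 and bars for the mean ± SD of 3 libraries. For PFAS, PAICS, ADSL, ATIC, IMPDH1, GMPS and HPRT1 every Met and Met+FK library lies below every DMSO library, whereas for GART every Met and Met+FK library lies above them. The share of all tested genes that lie apart in this way was not counted. In Met vs DMSO, 57.2% of all tested genes had an unadjusted p under 0.05 (limma).

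Metformin against vehicle asked what this drug did to the cells' transcripts. Of the 10 members, 7 fell and none rose (limma on log2(normalized count + 1), Benjamini-Hochberg adjusted p under 0.05), beside 25.9% of all tested genes that fell and 24.9% that rose. The members' median log2 fold change was −0.36, against 0.01 over all tested genes. Scaled to the same total count instead, the median of all genes moved to 0.13 and that of the members to −0.24, and 64.2% of all called genes were then higher, against 49.0% before.

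PFAS, the synthase that adds a nitrogen from glutamine to formylglycinamide ribotide, fell the most in the values as deposited, and PAICS did after correction for GC content. PFAS had 7779, 6682 and 7442 normalized counts in the DMSO libraries and 4457, 4318 and 5078 in the Met libraries. The groups did not overlap, and the log2 fold change was −0.66 (SE 0.10, adjusted p = 5.62e-05), a fall of 36.8%. PFAS was the only member that also passed the study's fold limit of 1.5 with metformin, which 10.2% of all tested genes passed downwards. It did not pass that limit at the same total (−0.54) or after the GC correction (−0.53), where PAICS (−0.85) and GMPS (−0.63) were beyond it.

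PAICS, the bifunctional enzyme that carboxylates the imidazole ring and joins aspartate to it, had 12183, 12448 and 11797 normalized counts in DMSO and 8559, 8494 and 7477 in Met. All Met libraries were lower, and the log2 fold change was −0.57 (SE 0.07, adjusted p = 1.57e-05), a fold of 1.49 and so just under that limit. ATIC, which closes the purine ring, had 11053, 10339 and 9995 in DMSO and 7532, 7606 and 8169 in Met. Its log2 fold change was −0.43 (SE 0.08, adjusted p = 0.000461), again without overlap. ADSL, the lyase that acts both in ring assembly and in AMP synthesis, lay between 4826 and 5349 in DMSO and between 3999 and 4430 in Met. It changed by −0.30 on the log2 scale (SE 0.08, adjusted p = 0.00586), and its overlapping neighbour SGSM3 by −0.05 (adjusted p = 0.646).

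In the guanine branch and in salvage, 3 of 4 members fell. HPRT1 had 3018, 3199 and 3088 normalized counts in DMSO and 2222, 2428 and 2088 in Met, a log2 fold change of −0.47 (SE 0.08, adjusted p = 0.000272). GMPS lay between 7259 and 8139 in DMSO and between 5955 and 6672 in Met, a log2 fold change of −0.28 (SE 0.07, adjusted p = 0.00316). The dehydrogenases parted. IMPDH1, the isoenzyme found at low level in most tissues, had 2363, 2244 and 2299 in DMSO and 1627, 1683 and 1858 in Met, a log2 fold change of −0.42 (SE 0.08, adjusted p = 0.000681). IMPDH2, the isoenzyme of proliferating cells, had 8482, 8195 and 7637 in DMSO and 7760, 7792 and 7947 in Met. These IMPDH2 values overlapped, with a log2 fold change of −0.05 and a 95% interval from −0.19 to 0.10.

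GART, which carries out several steps of ring assembly in 1 protein, had 13717, 14831 and 13845 normalized counts in DMSO and 15097, 15730 and 15432 in Met. Every Met library was above every DMSO library, by 0.13 on the log2 scale with an interval from 0.0019 to 0.25, and this did not pass the adjustment (adjusted p = 0.083). It passed with the other scalings (0.25 at the same total, adjusted p = 0.00249, and 0.16 with TMM, adjusted p = 0.0330) and without DMSO replicate 2 (0.16, adjusted p = 0.0489), but stood at 0.06 after correction for GC content and transcript length (adjusted p = 0.312). SON, which overlaps GART, changed the other way (−0.28, adjusted p = 0.00652).

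PPAT was not called, with 1486, 2042 and 1421 normalized counts in DMSO and 1602, 1806 and 1198 in Met. The groups overlapped, and the interval of its log2 fold change ran from −0.48 to 0.27 around −0.11. It turned to 0.06 without DMSO replicate 2 or without Met replicate 3. Scaled to the same total, PPAT (0.02) and IMPDH2 (0.07) changed sign, again without a call. Replicate 2 was the highest PPAT value in DMSO, Met and FK. PPAT has the lowest GC content of the members, 37.9% of the canonical transcript. With each library corrected for its trend over GC content and transcript length, its log2 fold change was −0.40 (adjusted p = 0.000242).

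The same 7 members passed the test in each fit that left out 1 of the 12 libraries. They also passed after the GC correction, where they and PPAT lay between −0.26 for IMPDH1 and −0.85 for PAICS. With libraries scaled to the same total, ADSL and GMPS no longer passed, at −0.18 (adjusted p = 0.0560) and −0.16 (adjusted p = 0.0721).

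**Figure D2:**
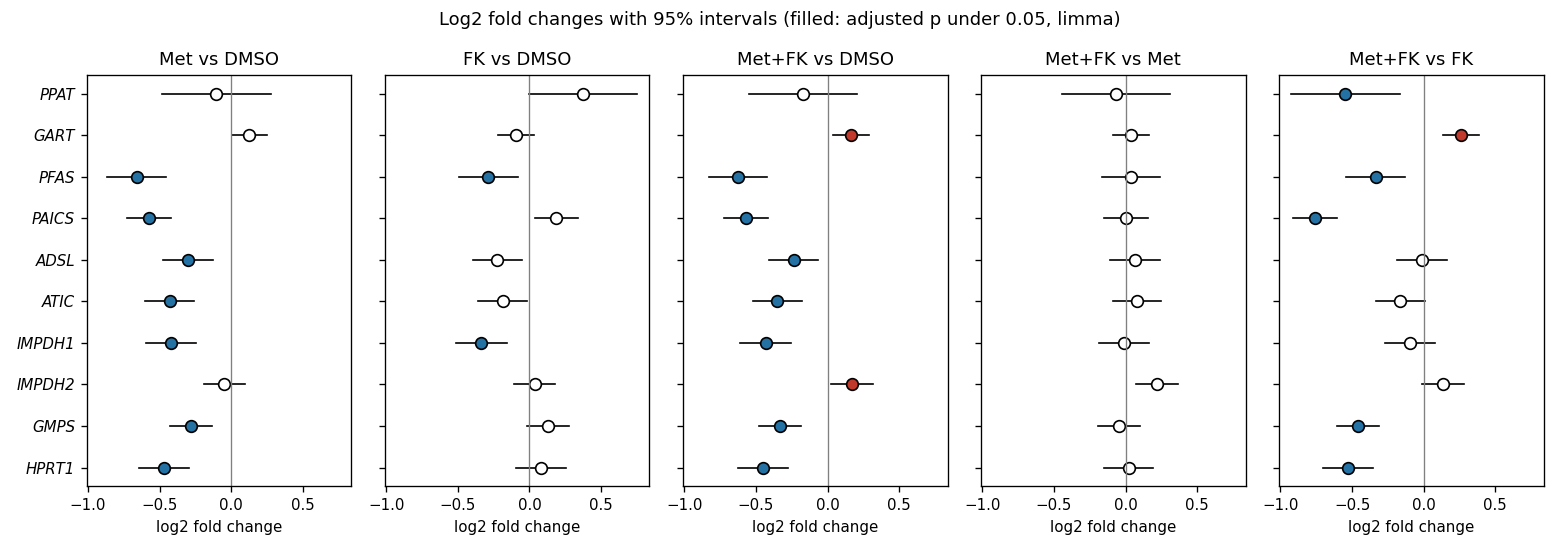
Log2 fold changes (horizontal axes) of the 10 members with 95% intervals in 5 comparisons, filled where the adjusted p was under 0.05, in blue for lower and red for higher. The 7 filled points of Met vs DMSO all lie to the left of 0, and no point is filled in Met+FK vs Met.

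FK866 against vehicle asked what this drug did on its own. Of the 10 members, 2 fell and none rose, beside 9.84% of tested genes that fell and 11.3% that rose. The members' median log2 fold change was −0.03, against −0.02 over all genes, and 53.5% of the called genes were higher (63.7% with TMM scaling). No member passed the fold limit, which 0.754% of genes passed downwards. IMPDH1 had 1970, 1684 and 1831 normalized counts in FK, all below its DMSO values, a log2 fold change of −0.34 (SE 0.08, adjusted p = 0.0226). PFAS had 6381, 5246 and 6355 in FK, also all below DMSO, a log2 fold change of −0.29 (SE 0.10, adjusted p = 0.0468). Both calls were close to the limit. The IMPDH1 call was lost without DMSO replicate 1, DMSO replicate 3 or FK replicate 2 (−0.28 and adjusted p = 0.0958 without the last). The PFAS call was lost without any of these or FK replicate 3, and also without Met replicate 1 or 2 or Met+FK replicate 1 or 2, which enter only the shared estimate of spread. Without FK replicate 2 it stood at −0.19 (adjusted p = 0.210), and the count of members called was then 0. The PFAS call was also lost with edgeR (adjusted p = 0.0575) and with TMM scaling (adjusted p = 0.0572).

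The other 8 members were not called with FK866. PAICS had 13856, 14629 and 13069 normalized counts, all above DMSO, with a log2 fold change of 0.19 (adjusted p = 0.0668), and it was called with edgeR (adjusted p = 0.0487) and without Met replicate 3 (adjusted p = 0.0468). GMPS lay between 8220 and 8564, also all above DMSO, at 0.13 (adjusted p = 0.163). PPAT had 1806, 2830 and 1841, at 0.37 with an interval from −0.0047 to 0.75 (adjusted p = 0.122), and it was called without DMSO replicate 2 (0.54, adjusted p = 0.0404). Without FK replicate 2, the high PPAT value, the change was 0.16 (adjusted p = 0.506). In the other direction, GART lay between 12950 and 13514 normalized counts, all below DMSO, at −0.09 (adjusted p = 0.224). ADSL at −0.22 (adjusted p = 0.0574) and ATIC at −0.19 (adjusted p = 0.0925) overlapped DMSO and were called without FK replicate 1 (adjusted p = 0.0172 and 0.0279), and ADSL also without Met replicate 3 and with DESeq2 (adjusted p = 0.0489 and 0.0475). The DMSO values were also overlapped by HPRT1 at 0.08 (adjusted p = 0.464) and IMPDH2 at 0.04 (adjusted p = 0.708). These misses do not show that the levels were alike.

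DMSO and FK libraries with the same number deviated together, with correlations of 0.25, 0.42 and 0.22 across genes, so they were read as paired. With the replicate number as a block, 6 members were called with FK866, beside 44.6% of all genes. PPAT (adjusted p = 0.0142) and PAICS (adjusted p = 0.00806) rose in that fit, while PFAS (adjusted p = 0.00277), IMPDH1 (adjusted p = 0.00237), ADSL (adjusted p = 0.0193) and ATIC (adjusted p = 0.0392) fell, with the log2 fold changes given above.

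The direction with FK866 followed base composition among the members. The 4 members with the lowest GC content, PPAT at 37.9%, HPRT1 at 40.4%, GMPS at 40.5% and PAICS at 41.9%, had positive log2 fold changes. Of the 6 others, ADSL at 45.3%, GART at 46.1%, ATIC at 47.4%, PFAS at 58.2% and IMPDH1 at 61.9% had negative values, and IMPDH2 at 52.5% was near 0. The median over all tested genes was 48.5%. Slopes of log2 values on GC content moved with the treatment too, and their part in these changes was tested only by removing the trend. They were 0.20, 0.04 and 0.18 per 10 percentage points in DMSO against 0.0027, −0.25 and −0.02 in FK. In Met they were −0.08, −0.14 and 0.08, and in Met+FK −0.02, −0.05 and 0.06. DMSO replicates 1 and 3 thus lay above every drug-treated library, and all comparisons with DMSO share them. After the trend was removed, IMPDH1 and PFAS were no longer called in FK vs DMSO (each −0.13, adjusted p = 0.126 and 0.114). ADSL then fell by 0.34 on the log2 scale (adjusted p = 0.0189), and IMPDH2 rose by 0.19 (adjusted p = 0.0249). GMPS turned from 0.13 to −0.22 (adjusted p = 0.0540, and 0.0138 with the block), and PPAT was at 0.01 (adjusted p = 0.958).

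**Figure D3:**
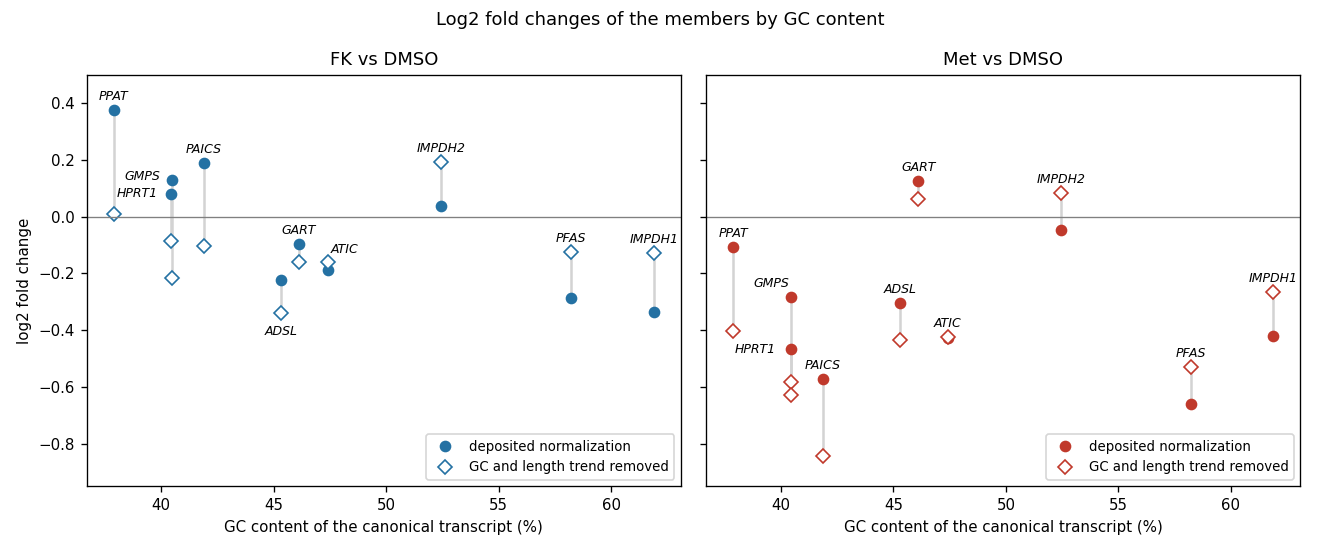
Log2 fold change (vertical axis) of each member against the GC content of its canonical transcript in percent (horizontal axis) for FK vs DMSO and Met vs DMSO, as deposited (filled circles) and after correction for each library's trend over GC content and transcript length (open diamonds). With FK the members under 42% GC lie above 0 as deposited and at or below 0.01 after the correction, whereas with Met only GART and IMPDH2 lie above 0 after it.

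The combination against vehicle asked what both drugs did together. Against the same DMSO libraries, 7 members fell and 2 rose in Met+FK, beside 26.1% of tested genes that fell and 26.1% that rose. The members' median log2 fold change was −0.34, against 0.01 over all genes. PFAS had 4555, 4483 and 5178 normalized counts, a log2 fold change of −0.62 (SE 0.10, adjusted p = 8.12e-05), and was the only member past the fold limit, which 11.3% of genes passed downwards. After the GC correction PFAS (−0.53) was within it and PAICS (−0.80) and GMPS (−0.63) were beyond it. PAICS had 8323, 8456 and 7743, at −0.57 (adjusted p = 1.23e-05), and HPRT1 had 2274, 2375 and 2176, at −0.45 (adjusted p = 0.000349). IMPDH1 at −0.43 (adjusted p = 0.000507), ATIC at −0.35 (adjusted p = 0.00197), GMPS at −0.33 (adjusted p = 0.000952) and ADSL at −0.24 (adjusted p = 0.0230) also fell, each without overlap. PPAT had 1423, 1450 and 1464 normalized counts, inside the DMSO range, at −0.17 with an interval from −0.55 to 0.21. With the GC trend removed it was at −0.41 (adjusted p = 0.000189).

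GART and IMPDH2 rose in Met+FK. GART had 15481, 15804 and 16229 normalized counts, all above DMSO, a log2 fold change of 0.17 (SE 0.06, adjusted p = 0.0276). IMPDH2 had 9184, 8959 and 9223, also all above DMSO, at 0.17 (SE 0.07, adjusted p = 0.0466). Both rises were small and close to the limit. The GART call was lost without DMSO replicate 1 or 3 or Met+FK replicate 2 or 3 (adjusted p up to 0.0913) and after the GC correction (0.11, adjusted p = 0.0819). The IMPDH2 call was lost in 8 of the 12 fits that left out a library, namely DMSO replicates 2 and 3, Met replicates 1 and 2, FK replicate 3 and each of the Met+FK libraries (adjusted p up to 0.183), and was kept after the GC correction (0.30, adjusted p = 7.62e-05). The ADSL fall was lost without DMSO replicate 1 or 2 or Met+FK replicate 1 or 2 (adjusted p up to 0.0870), and with libraries scaled to the same total (−0.15, adjusted p = 0.0992).

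With FK866 added to metformin none of the 10 members was called (limma, adjusted p under 0.05), beside 0.0976% of all genes tested. At an unadjusted p under 0.05 there was 1, IMPDH2, beside 6.84% of all genes. On the recovered read pairs edgeR and DESeq2 called 0 members, beside 0.104% and 0.475% of all genes. IMPDH2 was higher in all 3 Met+FK libraries than in any Met library, by 0.22 on the log2 scale with an interval from 0.07 to 0.37 (adjusted p = 0.449). It was called only when the GC correction and the block were used together (adjusted p = 0.00582). For the other 9 members the log2 fold changes lay between −0.07 for PPAT and 0.08 for ATIC, and their groups overlapped. Met and Met+FK libraries of the same number were also read as paired (correlations of 0.17, 0.20 and 0.23), and the block alone called no member. After the GC correction the correlations of these pairs were 0.160, 0.0954 and 0.0748, 2 of them under the limit of 0.1, so the pairing behind the IMPDH2 call does not hold in those values.

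Against FK866 alone, Met+FK lowered 5 members and raised 1, beside 21.7% of tested genes that fell and 20.5% that rose. PAICS fell the most, from 13856, 14629 and 13069 normalized counts in FK to 8323, 8456 and 7743, a log2 fold change of −0.76 (SE 0.07, adjusted p = 1.13e-06) and the only member past the fold limit, which 9.29% of genes passed downwards. PPAT at −0.55 (adjusted p = 0.0226), HPRT1 at −0.53 (adjusted p = 0.000116), GMPS at −0.46 (adjusted p = 8.42e-05) and PFAS at −0.34 (adjusted p = 0.0110) fell as well, and GART rose by 0.26 (adjusted p = 0.00235). The PPAT call was lost without FK replicate 2 (−0.33, adjusted p = 0.0853) or Met+FK replicate 1 or 2, and the PFAS call without FK replicate 3 or Met+FK replicate 2 (adjusted p up to 0.0511). ATIC at −0.16, IMPDH1 at −0.10, ADSL at −0.01 and IMPDH2 at 0.14 were not called, with intervals from −0.33 to 0.01, −0.27 to 0.08, −0.18 to 0.16 and −0.01 to 0.28. ATIC was called without FK replicate 2 (−0.23, adjusted p = 0.0286), and ATIC and IMPDH1 were called after the GC correction (−0.18, adjusted p = 0.0206, and −0.20, adjusted p = 0.00393). This comparison shares its Met+FK libraries with the one against DMSO.

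The single drugs set against each other gave 6 members lower and 1 higher in Met than in FK, beside 19.5% and 17.2% of tested genes. PAICS at −0.76 (adjusted p = 1.61e-06) was the only one past the fold limit, which 7.03% of genes passed downwards, and GART was the one that was higher, at 0.22 (adjusted p = 0.00796). HPRT1 at −0.55, GMPS at −0.41 and PFAS at −0.37 were lower in each fit that left out a Met or FK library. PPAT at −0.48 (adjusted p = 0.0463), whose groups overlapped, lost its call without FK replicate 2 (−0.27, adjusted p = 0.175), Met replicate 1 or 3, DMSO replicate 1 or any Met+FK library, and ATIC at −0.24 (adjusted p = 0.0274) lost it without Met replicate 1 or 2 or FK replicate 1 or 3. With libraries scaled to the same total both calls were lost (PPAT −0.38, adjusted p = 0.116, and ATIC −0.14, adjusted p = 0.143), and that of PPAT also with TMM (adjusted p = 0.0537) and edgeR (adjusted p = 0.0502).

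Whether FK866 acted differently in the presence of metformin was tested as the interaction. None of the 10 members passed (limma), beside 0.0585% of all genes, and 4 had an unadjusted p under 0.05, namely PFAS, ADSL, ATIC and IMPDH1, beside 30.5% of all genes. Their differences lay between 0.27 and 0.33 on the log2 scale with adjusted p between 0.115 and 0.136. edgeR and DESeq2 called 0 members, beside 0.065% and 5.67% of all genes. With the replicate block these 4 were called higher and PPAT (−0.44, adjusted p = 0.0448) lower, beside 32.0% of all genes. In the fit without the block, PPAT stood at −0.23 without FK replicate 2 (adjusted p = 0.517) and at −0.01 after the GC correction (adjusted p = 0.965). With the GC correction and the block together ADSL alone was called (0.42, adjusted p = 0.0237). That block also ties Met libraries to Met+FK libraries of the same number. Their GC-corrected correlations for replicates 2 and 3 were 0.0954 and 0.0748, under the limit of 0.1, so this ADSL call lacks that footing. After the GC correction without the block, ADSL was not called (0.42, adjusted p = 0.0927). As deposited and without the block, ADSL was called in the fit that left out FK replicate 1.

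Ratios of 2 genes in the same library do not depend on how libraries are scaled, and 5 were formed after the values had been seen, in 20 comparisons in all. The ratio of GART to PAICS normalized counts was 1.13, 1.19 and 1.17 in DMSO and 1.76, 1.85 and 2.06 in Met. It was 0.975, 0.885 and 1.01 in FK and 1.86, 1.87 and 2.10 in Met+FK. With metformin every ratio was above every ratio without it, by 0.70 on the log2 scale for Met against DMSO and by 1.02 for Met+FK against FK. The exact two-sided permutation test gave p = 0.1 for each, which is the smallest it can give with 3 libraries against 3 (0.182 for every such p after Benjamini-Hochberg adjustment over the 20). GART to PFAS was likewise higher in every Met library than in any DMSO library, at 3.36 ± 0.303 against 1.95 ± 0.240 (exact permutation p = 0.1). GART to its overlapping neighbour SON went from 0.836 ± 0.0968 to 1.10 ± 0.0539, also without overlap (exact permutation p = 0.1).

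The ratio of the isoenzymes of IMP dehydrogenase differed without overlap between vehicle and each drug. IMPDH2 to IMPDH1 stood at 3.52 ± 0.175 in DMSO, 4.56 ± 0.253 in Met, 4.56 ± 0.246 in FK and 5.35 ± 0.340 in Met+FK. Each of Met and FK lay above DMSO in all 3 libraries (0.37 on the log2 scale for each), and Met+FK lay above both in all 3 (0.23 against either), with an exact permutation p = 0.1 in the 4 comparisons. IMPDH1 is the richer in GC, at 61.9% against 52.5% for IMPDH2. After the GC correction, IMPDH2 exceeded IMPDH1 in fitted log2 fold change by 0.35 in Met against DMSO (0.37 before), by 0.32 in FK against DMSO (0.37 before) and by 0.31 in Met+FK against FK (0.23 before).

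For the head-to-head pair, PAICS to PPAT was 8.20, 6.09 and 8.30 in DMSO and 5.34, 4.70 and 6.24 in Met, a log2 difference of −0.47 with groups that overlapped (exact permutation p = 0.2, adjusted 0.308). In FK it was 7.67, 5.17 and 7.10, and in Met+FK 5.85, 5.83 and 5.29, and for FK against DMSO and Met+FK against FK the exact permutation p was 0.5 and 0.4 (adjusted 0.556 and 0.5). At 3 libraries a group these p-values do not show that the ratios were alike.

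**Figure D4:**
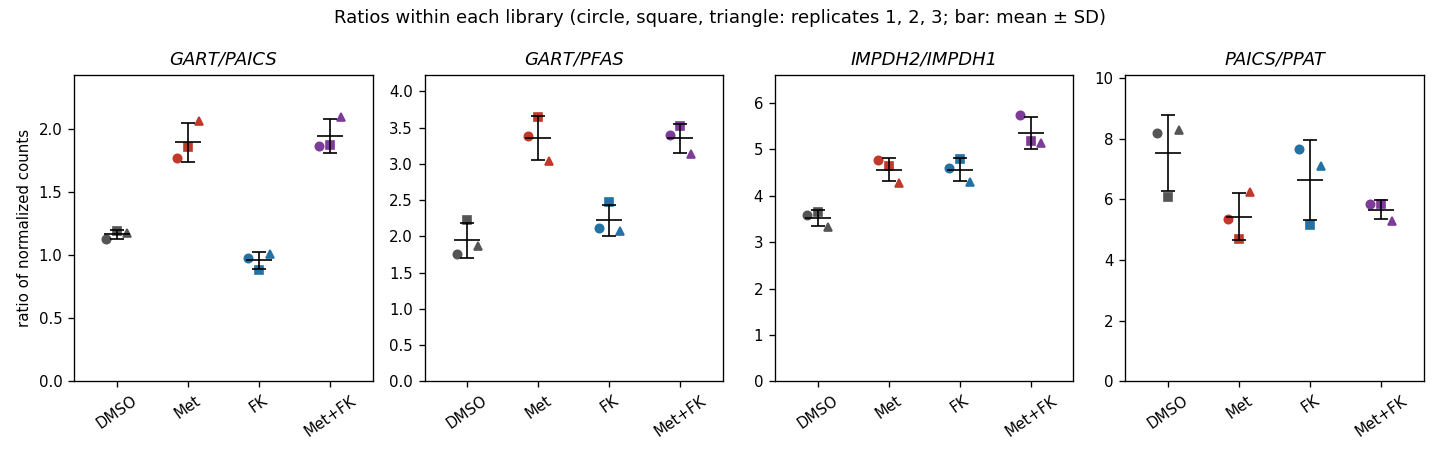
Ratios of normalized counts of 2 members within each library (vertical axes, starting at 0) by treatment, with circles, squares and triangles for replicates 1, 2 and 3 and bars for the mean ± SD of 3 libraries. GART to PAICS and GART to PFAS are higher in every library with metformin than in any library without it, and IMPDH2 to IMPDH1 is highest in the Met+FK libraries.

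Around these enzymes, 54 further genes of purine metabolism and its supply were listed, of which 49 were tested. With metformin 12 rose, 20 fell and 17 were not called, with a median log2 fold change of −0.17 (Met vs DMSO, limma). Of all tested genes 24.9% rose and 25.9% fell there. With FK866 alone 6 rose and 5 fell, beside 11.3% and 9.84% of all tested genes. In Met+FK against DMSO 11 rose and 20 fell, beside 26.1% and 26.1%. In Met+FK against FK 12 rose and 15 fell, beside 20.5% and 21.7%. In Met+FK against Met none was called, beside 0.0976%. No test compared these counts with the shares.

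The mRNAs of both main PRPP synthetases fell with metformin, while PRPP itself was not measured. PRPS1, which makes PRPP from ribose phosphate, had means of 6358 ± 332 normalized counts in DMSO and 3571 ± 75.8 in Met, a log2 fold change of −0.83 (adjusted p = 7.44e-07), and PRPS2 fell by 0.47 on the same scale. The 2 associated regulatory proteins on the list were not called. Of the other users of PRPP, NAMPT, the target of FK866, rose in Met (0.69), in FK (0.56, adjusted p = 0.0333) and in Met+FK (0.77). The FK libraries had 2307, 3662 and 2351 normalized counts of NAMPT, highest in FK replicate 2, and no fit without that library is given. NAPRT, which salvages nicotinic acid and had only 37.5 ± 4.25 normalized counts in DMSO, fell by 1.12 in Met, and UMPS, which uses PRPP for pyrimidines and was named after its value was seen, fell by 0.56. QPRT was too low to test.

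The folate enzymes that supply formyl groups to GART and ATIC split. MTHFD2, the mitochondrial dehydrogenase, rose with metformin by 1.09 on the log2 scale and MTHFD1L by 0.71, while the third of the 3 called, the cytosolic MTHFD1, also named after its value was seen, fell by 0.51. MTHFD2 was the 1 of the 4 listed genes that rose with FK866 alone (0.46, adjusted p = 0.00471), beside 11.3% of all tested genes.

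Genes of steps after IMP also went both ways with metformin, beside 24.9% of all tested genes that rose and 25.9% that fell. No test compared the counts of these short lists with those shares. ADSS2, the adenylosuccinate synthase that leads to AMP, rose by 0.38 with metformin (listed by its older symbol ADSS in the table). Of 5 tested salvage genes besides HPRT1, PNP, which splits inosine and guanosine, fell by 0.68 and DGUOK by 0.33, and ADK, the adenosine kinase, rose (0.22, named after its value was seen). Of 11 tested genes of interconversion and breakdown, 2 rose and 3 fell, led by XDH, which oxidizes hypoxanthine to urate, at −1.25 and GMPR, which returns GMP to IMP, at −0.87. Of 11 nucleotide kinases 6 fell and 1 rose, led by NME1 at −0.73 and NME4 at −0.69. NME1 and NME2 are close copies, and reads shared between them are uncertain.

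Of 4 genes of deoxynucleotide supply, 3 fell and 1 rose with metformin, beside 25.9% and 24.9% of all tested genes. Ribonucleotide reductase turns purine and pyrimidine diphosphates into DNA precursors, and its subunit RRM2 fell the most of the 49 genes with metformin. RRM2 had means of 30846 ± 284 normalized counts in DMSO and 9401 ± 223 in Met, a log2 fold change of −1.71, and RRM1 changed by −0.69. The gene that rose was RRM2B, a subunit that p53 can induce, at 0.64, named with SAMHD1 at −0.35 after their values were seen. The study reported p53 protein as undetectable in KP4 cells, and the cause of the RRM2B rise was not tested. The nucleoside carrier SLC29A1 fell by 1.01, and SLC29A3 rose by 0.26. MYC rose by 0.38 and ATF4, a transcription factor of the amino acid response, by 0.88 with metformin, and neither was called with FK866 alone (−0.14 and −0.01).

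**Figure D5:**
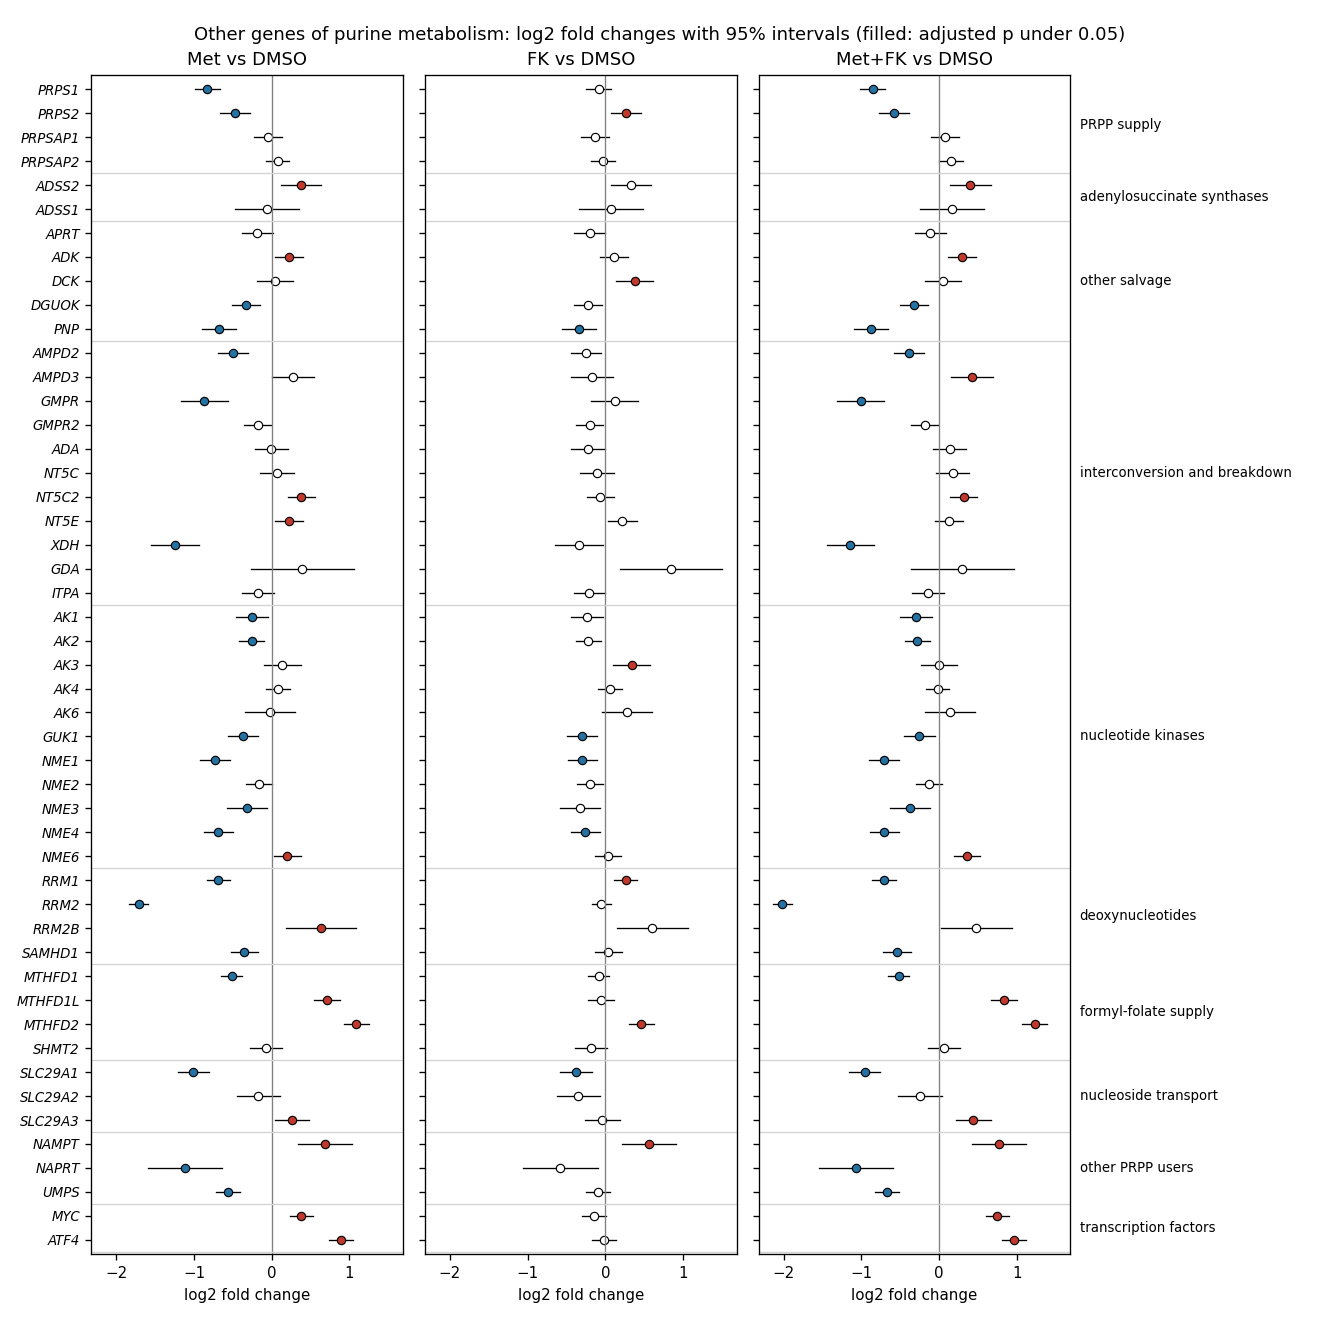
Log2 fold changes (horizontal axes) with 95% intervals of the 49 tested genes of the other purine lists in Met, FK and Met+FK against DMSO, grouped by list and filled where the adjusted p was under 0.05 (red higher, blue lower). PRPS1, PRPS2, RRM1 and RRM2 lie left of 0 and MTHFD2, MTHFD1L and NAMPT right of 0 with metformin, with and without FK866.

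The mean profile of the members, each gene's log2 values centred on its own mean over the 12 libraries, lay between 0.11 and 0.20 in the DMSO libraries, between 0.08 and 0.17 in FK, between −0.18 and −0.12 in Met and between −0.16 and −0.09 in Met+FK. Single members departed from this mean by a root-mean-square difference of between 0.09 for GMPS and 0.26 for PPAT. Among 11511 other genes averaging 100 normalized counts or more, the 5 closest to it were ATXN10, ACO1, NECAP1, GSPT1 and TSR1, with differences between 0.04 and 0.05 over the 12 libraries. None of these 5 was among the 5 closest when the 4 treatment means were used instead.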

How the data were processed

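Paired-end sequencing of 12 libraries of KP4 cells, 3 per treatment, followed depletion of ribosomal RNA. The authors used cutadapt for trimming, STAR for alignment to hg38 and featureCounts for pairs per gene, and deposited a signal without negative values, counts divided by DESeq2 size factors (0.867 to 1.21). Only pairs with both ends aligned were counted, and the annotation is not given in the sources used here. Of the deposited values, 100% were whole multiples of 1 read pair within 0.01, so read pairs were recovered. Treatments and replicates came from the sample titles.

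Differences were tested by limma-trend (limma 3.58.1, R 4.3.3) on log2(normalized count + 1), with the 12 libraries fitted jointly and 15376 genes averaging 10 or more, adjusted over all of them per comparison. The fit was also run on simulated counts in which only metformin changed genes. Those counts held no FK866 effect, replicate shift or GC trend, so they do not bear on calls that depend on these. The study's fold limit of 1.5 was an alternative. On recovered pairs, edgeR 4.0.16 called 7803 genes and DESeq2 1.42.0 called 7690 for Met vs DMSO, 3023 and 4142 for FK vs DMSO, and 16 and 73 for Met+FK vs Met, against 15 in the main test of the last. GC content and length were those of GENCODE 44 canonical transcripts, known for 15324 of the tested genes, and loess trends (span 0.3) were removed per library.

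Same-numbered libraries were read as paired where the correlation of their deviations from group means passed 0.1 in all 3 pairs, which held for DMSO with FK and Met with Met+FK, from the values alone. The replicate block, 1 shift per replicate number over all treatments, also ties the pairs that missed this limit. The members, lists and naming rule were chosen with earlier results of these data known. All members are named, and of each list at most the 2 called genes with the largest change in Met vs DMSO, plus NAMPT and MYC. Genes overlapping a member or starting within 1000 bases of it are named too. Positions are those of the deposited table, whose starts count from 0, shifted by 1. Promoter sequences are RefSeq's (GRCh38.p14).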

Additional observations from a re-analysis of the deposited data

How the results depend on the processing

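Requiring a fold change over 1.5 as well left 1 member in each of Met vs DMSO, Met+FK vs DMSO, Met+FK vs FK and Met vs FK, and 0 in FK vs DMSO. The count for FK vs DMSO, 2 in the main test, was 1 over all genes with any value above 0 and 1 with libraries scaled to the same total. It was 0 in a fit of only the 6 libraries compared. With the replicate block it was 6, beside 44.6% of all genes, and with the GC correction and the block 4, beside 19.9%. It was 0 to 4 when 1 library was left out. GMPS turned to −0.22 (adjusted p = 0.0138) in FK vs DMSO with the GC correction and the block. The interaction gave 5 with the replicate block, beside 32.0% of all genes, and 1 with the GC correction and the block, beside 6.87%. It gave 0 to 1 when 1 library was left out. Met+FK vs Met gave 1 with the GC correction and the block, beside 3.39% of all genes. For this count and that of the interaction in the same fit, GC-corrected Met and Met+FK libraries missed the correlation limit. In the other comparisons same-numbered libraries were not read as paired (correlations from 0.013 to 0.40), and the block gave 8 for Met vs DMSO, 9 for Met+FK vs DMSO, 6 for Met+FK vs FK and 7 for Met vs FK, beside 60.2%, 61.1%, 52.5% and 47.5% of all genes. When a library was left out the count was 7 to 8 for Met vs DMSO, 6 to 9 for Met+FK vs DMSO, 4 to 7 for Met+FK vs FK and 5 to 7 for Met vs FK. Shares of all genes called are not given for the fits without a library. Nor are they given for the fits over all genes above 0, at the same total or of only 6 libraries. A change in those counts can therefore not be set beside that of all genes. Scaling to the same total moved the share of called genes that were higher from 46.9% to 64.1% in Met vs FK and from 93.3% to 61.9% in Met+FK vs Met. Of 120 values of single members in Met vs DMSO under the other alternatives, 112 kept their side of the threshold, against 97 of 120 in FK vs DMSO. Those kept include uncalled values that changed sign. Examples are PPAT and IMPDH2 at the same total in Met vs DMSO, and PAICS and HPRT1 after the GC correction in FK vs DMSO. The causes were not tested. The lowest member value was 1198 normalized counts, and the part of depth was not tested.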

Other observations

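MTAP, which salvages methylthioadenosine to adenine, was listed at 0 in all 12 libraries, which allows up to 3 read pairs per library. PRPS1L1, AMPD1, SLC43A3 and QPRT, the other listed genes that were not tested, had between 0 and 5.77 normalized counts. AC104472.5, which lies within the span of GMPS on the same strand, had means of 11.7 normalized counts in DMSO and 4.92 in Met+FK (log2 fold change −1.08, limma adjusted p = 0.0197).

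Among the listed genes, DCK, which phosphorylates deoxynucleosides, rose with FK866 alone (0.38, limma adjusted p = 0.0333) and PNP fell (−0.34, adjusted p = 0.0369), and in Met+FK against FK both were lower (−0.33 and −0.53). RRM1 also rose with FK866 alone (0.26, adjusted p = 0.0277) and was lower in Met+FK than in FK (−0.97). PRPS2 showed the same order, with 0.26 in FK against DMSO (adjusted p = 0.0495) and −0.84 in Met+FK against FK. These genes were chosen after their values were seen, and the comparisons share the FK libraries. FK replicate 2 had the highest FK value of DCK (1320, 1723 and 1342), RRM1 (8928, 9607 and 8679) and PRPS2 (3973, 4758 and 4106). It had the lowest of PNP (1947, 1550 and 1813). No fit without that library is given for these genes.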
